A study of Mus musculus with 10 samples.

Results

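The cytosolic ribosomal protein genes were examined by RNA-seq in 10 subcutaneous (s.c.) tumors. A gene was taken as a member when its symbol is Rpl or Rps followed by a number and at most one of the letters a, l or x, or is Rplp0, Rplp1, Rplp2 or Rpsa, and when it is annotated as protein coding. This gave 78 of the 37417 genes in the count table, 47 for the large ribosomal subunit and 31 for the small subunit. Another 2 symbols of that form, Rps4l and Rpl6l, are annotated as pseudogenes and were left out, and Rpl24 and Rpl41 were not analysed here. Of the 78 members, 77 passed the filter on low counts. The remaining one, Rpl10l, had 0 counts in every tumor, which allows a level of up to 0.0760 to 0.107 CPM, depending on the tumor (3 counts of its assigned counts, counting error only). CPM is the unit of edgeR, a count divided by the scaled size of its library, per 1000000.

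Panc02, a cancer line from mouse pancreas, was injected s.c. into wild-type C57BL/6J mice, and the tumors were collected at day 16. In both groups the cancer cells carried a doxycycline-inducible Cas9 from lentiviral vectors and were used as selected pools, with a nontargeting guide RNA in 5 tumors (sgNT) and a guide against Cda, the gene for cytidine deaminase, in the other 5 (sgCda). The labels give the mice an age of 12 weeks. Whole tumors were lysed, so each value averages cancer cells, which alone carried the guide, and host cells, which did not.

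A ribosome holds a single copy of most of its proteins, and the large and small subunits are built in the nucleolus from ribosomal RNA and these proteins. The messenger RNAs of ribosomal proteins typically begin with a 5′ terminal oligopyrimidine (TOP) tract, a C followed by a run of C and T bases, through which mTOR signaling and the protein Larp1 set how strongly they are translated. The genes also have many processed pseudogenes, copies of the spliced RNA inserted elsewhere in the genome, and reads that match such a copy equally well were not counted. This last property was measured here because it bears on every level below.

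Sequences at the annotated transcription start were read from RefSeq (build GRCm38.p6) for the 58 members that the table holds, from 8 bases upstream to 20 bases from the start onward, so that the start is the base after the first 8. The C and T run that holds a match to C followed by at least 4 bases of C or T, starting within 5 bases of the annotated start on the sense strand, is in capitals. Rps6, Rpl38 and Rplp2 are shown as examples of a tract at the start, Rps24, Rps26 and Rpl23 because they had the smallest p-values toward higher levels in sgCda tumors, Rps10 because it lay farthest below its mean in one tumor, leaving aside Rpl3l and Rpl39l with few counts, and Rpl3l because it varied most.
Rps6, chr4:86857348-86857375, minus strand: agtcgggCCTCTTTTTCgtgacgcctcc
Rpl38, chr11:114668572-114668599, plus strand: gcctcgTTCTTTCCCCgttctcttcggt
Rplp2, chr7:141447643-141447670, plus strand: gcgTCTTCCTTTCgccgccggacgccgc
Rps24, chr14:24490670-24490697, plus strand: tggggTCCTTCCTTgcgcgttgatatga
Rps26, chr10:128626487-128626514, minus strand: aagccgccggaTCCTCTTTCgagtcttg
Rpl23, chr11:97782420-97782447, minus strand: ccggtcacgtggctgagtgggcggggcc
Rps10, chr17:27635225-27635252, minus strand: gcacgCCCCTTCCTTTCCagcctccgcc
Rpl3l, chr17:24727818-24727845, plus strand: ctagctctgtcatttgacctctggtgcc

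Exactly at the annotated start, such a tract was found for 13 of the 58 members (22.4%), against 3.01% of the 27025 genes with a promoter sequence. Starting within 5 bases of it, a tract was found for 28 members (48.3%), against 21.2% of all genes. In the 300-base promoters, which reach 250 bases upstream and 50 downstream of the start, CCGGAAG, the core motif of ETS factors, lay on either strand, as for the next 2 motifs, in 24 members (41.4%) and in 9.93% of all genes. AAGATGGC, the core motif of Yy1, lay in 5 members (8.62%) and in 3.19% of all genes. GGGCGG, the GC box, lay in 35 members (60.3%) and in 38.2% of all genes. TATAAA on the sense strand, 15 to 45 bases upstream of the start, was found in 0 of the 58 members and in 2.57% of all genes. These matches describe letters in a window and no binding or start site was measured. For the other 20 members no sequence is given.

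The libraries held 28051907 to 39484964 counts assigned to genes. Cda, the targeted gene, stood at 12.1 ± 1.76 CPM in sgNT tumors and 9.77 ± 2.34 CPM among sgCda tumors (SD, n = 5 each). The ranges were 10.1 to 14.7 and 7.48 to 12.5 CPM, so the groups overlapped. The log2 fold change of Cda was -0.30 (SE 0.17, unadjusted p = 0.0964 by edgeR). The paper states that silencing was checked in the cell lines by RT-qPCR and western blot, with Cda primers placed over the region that the guides target. The counts here cover the whole gene in whole tumors, so they are another measure. In cells sorted from its mouse tumor models, the paper also found Cda in endothelial cells and some in fibroblasts. Panc02 cells are of epithelial origin, and Krt8 was present in every tumor at 353 to 645 CPM, whereas Epcam stayed between 0.911 and 3.43 CPM. The acinar markers Cpa1 and Prss1 were at or near 0. Over the 10 tumors, the summed markers of macrophages ranged from 1618 to 2244 CPM, those of fibroblasts from 2812 to 5545, of T cells from 149 to 478, of endothelial cells from 54.9 to 105, of epithelial cancer cells from 568 to 1016, of skeletal muscle from 156 to 2560, of adipocytes from 2.99 to 98.4, of keratinocytes from 3.41 to 18.8, of B cells from 3.90 to 7.08 and of pancreatic acinar cells from 0.992 to 2.99.

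The cytosolic ribosomal protein genes took nearly the same share of the assigned counts in both groups. In sgNT tumors they held 3.99%, 3.56%, 4.33%, 4.22% and 4.39% (replicates 1 to 5). In sgCda tumors they held 4.13%, 4.35%, 4.36%, 3.48% and 4.59%. The shares of the groups overlapped. The lowest were those of sgNT replicate 2 (3.56%, the next in its group 3.99%) and sgCda replicate 4 (3.48%, the next 4.13%). The means were 4.10% ± 0.336 and 4.18% ± 0.423 (SD, n = 5 each), a difference of 0.0837 percentage points that is smaller than either SD. Without sgNT replicate 2 the difference was -0.0506 points, without sgCda replicate 5 it was -0.0176, and without sgCda replicate 4 it was 0.258. Genes of the large subunit held 2.30% ± 0.172 in sgNT and 2.34% ± 0.210 among sgCda tumors, and those of the small subunit held 1.80% ± 0.165 and 1.84% ± 0.213. Counting error was far below the spread between tumors (Wilson 95% interval of the lowest share 3.47% to 3.49%). In bulk tissue, fewer cells of a type and less of an RNA per cell cannot be told apart.

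**Figure D1:**
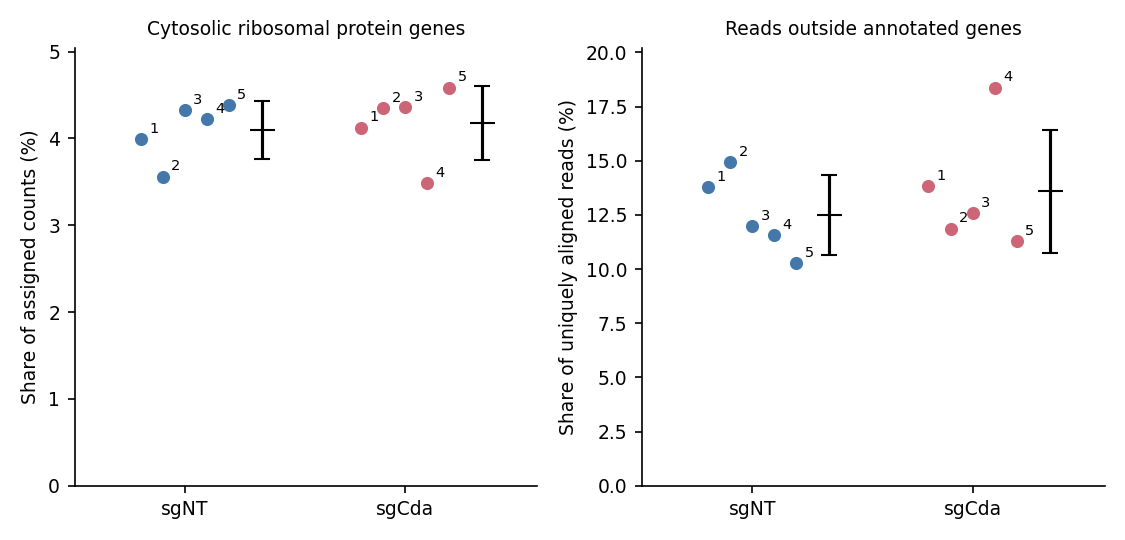
Share of assigned counts held by the 78 cytosolic ribosomal protein genes (left, in %) and share of uniquely aligned reads that fell outside annotated genes (right, in %) in each tumor, by group. Numbers are replicates, and bars show the mean ± SD of 5 tumors. The ribosomal protein share was lowest in sgNT replicate 2 (3.56%) and sgCda replicate 4 (3.48%), and the share outside genes was highest in these tumors of each group (14.9% and 18.4%).

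No ribosomal protein gene passed the test for a difference between sgCda and sgNT tumors. By edgeR's quasi-likelihood test with Benjamini-Hochberg adjustment over all 15299 genes tested, 0 of 77 members had an adjusted p under 0.05, as did 0 of all genes (0.0%). At an unadjusted p under 0.05 there were again 0 members, against 382 of all genes (2.5%), and the expression ranges of the groups were separate for 0 members, against 92 of all genes (0.601%). DESeq2 and limma-voom also gave 0 members at an unadjusted p under 0.05. Of the 77 members, 54 had a log2 fold change above 0, a share of 70.1% where 52.9% of all genes did. That count followed single tumors, since it was 18 without sgNT replicate 2, 31 without sgCda replicate 5 and 74 without sgCda replicate 4. The median log2 fold change of the members was 0.02, beside 0.01 over all genes, and their median absolute log2 fold change was 0.03, beside 0.08 over all genes.

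For most members the 95% confidence interval of the group difference in whole-tumor RNA stayed within 30%. A difference in the cancer cells alone is not bounded by it. Rpl3l, Rpl39l and Rpl23a had few counts and wide intervals. For the other 74 members the log2 fold change lay between -0.05 and 0.19, and the 95% confidence intervals of the group difference together spanned -25.5% to 43.1%. The interval stayed within 30% in both directions for 71 of these 74 members, and within 50% for all 74.

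**Figure D2:**
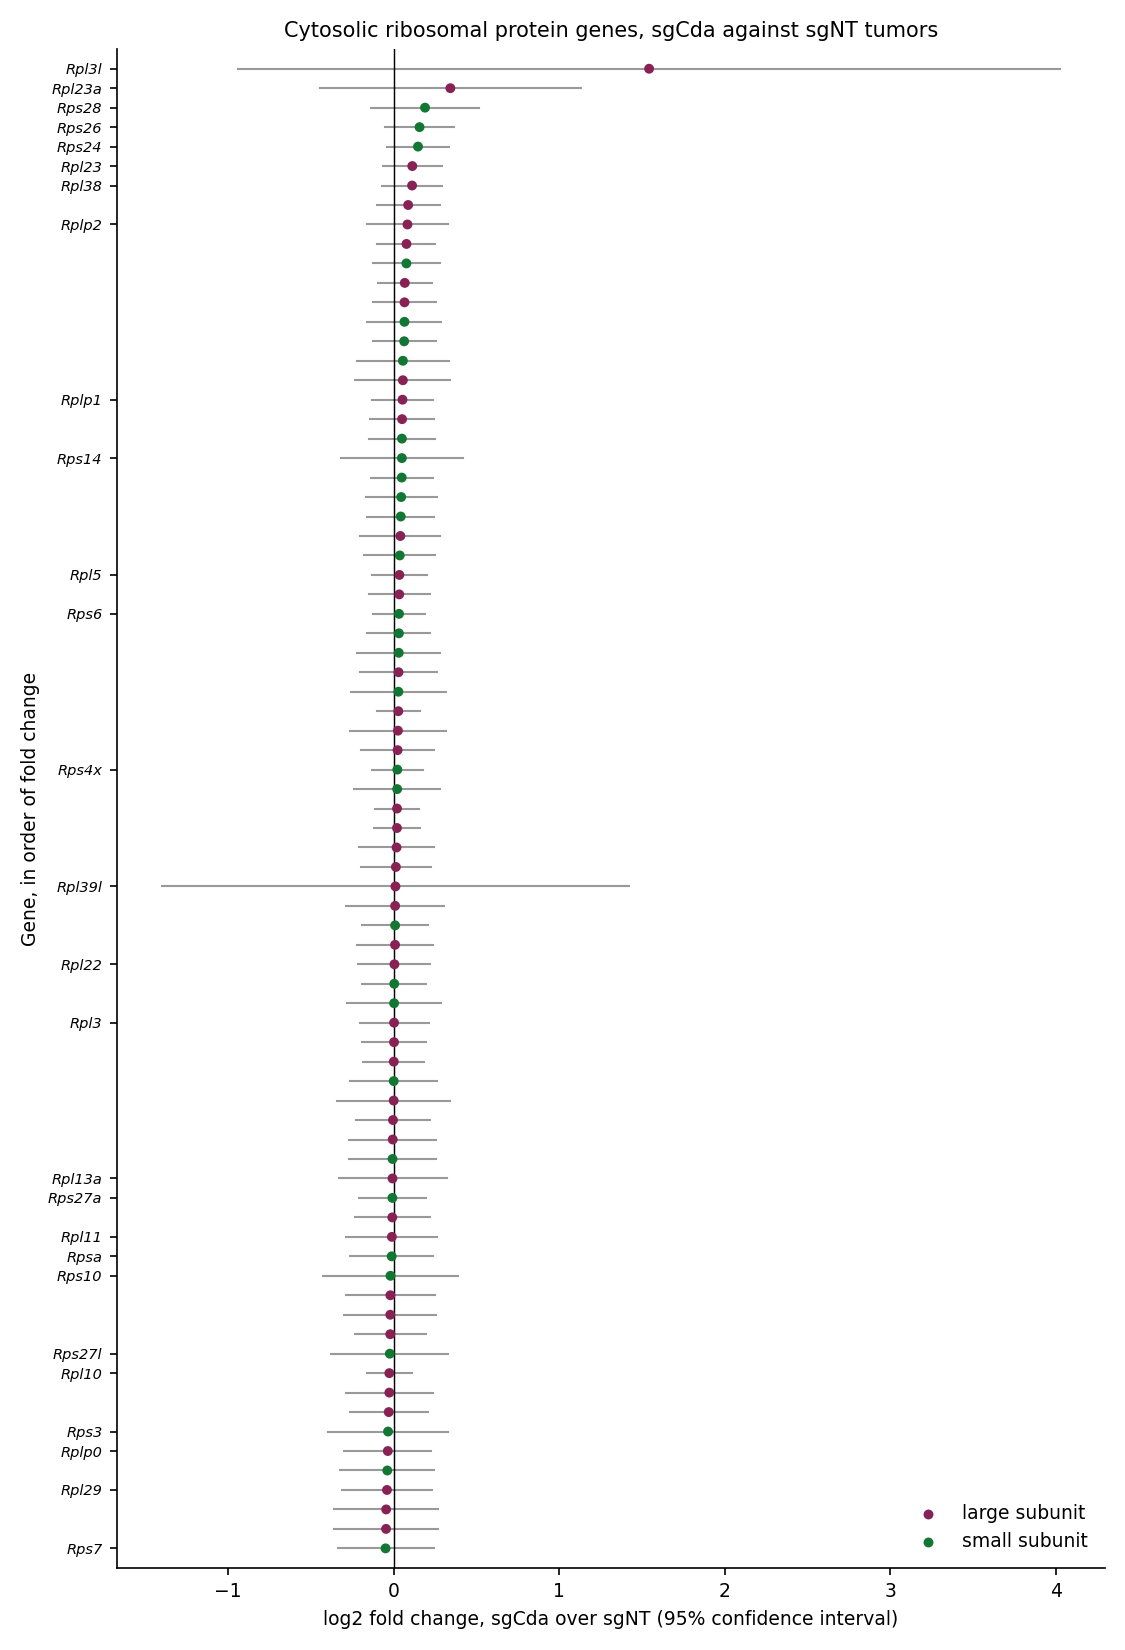
Log2 fold change of each of the 77 members that passed the filter, sgCda over sgNT, with its 95% confidence interval (grey lines), in order of size. Purple points are large subunit genes and green points small subunit genes, and several of the members described in the text are labeled. Every interval crosses 0, and those of Rpl3l, Rpl39l and Rpl23a are the widest.

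Among members with higher levels in sgCda tumors, the smallest p-value belonged to Rps24, a small subunit protein mutated in some families with Diamond-Blackfan anemia. Its levels were 655, 550, 753, 685 and 690 CPM in sgNT tumors and 711, 730, 725, 723 and 802 CPM among sgCda tumors. All 5 sgCda values lay above 4 of the sgNT values, but sgNT replicate 3 was higher than 4 of the sgCda tumors. The log2 fold change was 0.15 (SE 0.09, unadjusted p = 0.116, adjusted p = 0.9996 by edgeR). Without sgNT replicate 3 the unadjusted p was 0.0472 by edgeR, at an adjusted p of 0.9997. Rps26, which lies where messenger RNA leaves the ribosome, stood at 317, 298, 374, 367 and 358 CPM in sgNT and at 345, 364, 366, 461 and 375 CPM among sgCda tumors (log2 fold change 0.16, SE 0.10, unadjusted p = 0.127 by edgeR). Its highest value was that of sgCda replicate 4, and without that tumor and sgNT replicate 2 the log2 fold change was 0.03. Rpl23, which can bind the p53 inhibitor Mdm2, had 927, 844, 929, 906 and 918 CPM in sgNT and 933, 937, 893, 1141 and 989 CPM among sgCda tumors (log2 fold change 0.11, SE 0.08, unadjusted p = 0.188 by edgeR). Again sgCda replicate 4 was highest, and without it and sgNT replicate 2 the log2 fold change was 0.03.

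On the lower side the smallest p-values were far from any threshold. Rpl10, which joins the large subunit late in its assembly, had 311, 295, 323, 314 and 334 CPM in sgNT and 297, 322, 302, 292 and 336 CPM among sgCda tumors (log2 fold change -0.03, SE 0.06, unadjusted p = 0.682 by edgeR). Rps7, another protein that can bind Mdm2, had 1099, 933, 1086, 1039 and 1218 CPM in sgNT and 1104, 1143, 995, 735 and 1220 CPM among sgCda tumors (log2 fold change -0.05, SE 0.13, unadjusted p = 0.719 by edgeR). Its groups ranged over each other except for the low sgCda replicate 4, without which the log2 fold change was 0.05. Rpl29, a heparin-binding protein of the large subunit, had 79.8, 69.1, 84.4, 90.9 and 114 CPM in sgNT and 76.2, 83.1, 100.1, 80.8 and 85.8 CPM among sgCda tumors (log2 fold change -0.04, SE 0.12, unadjusted p = 0.752 by edgeR). The direction for Rpl29 turned without sgNT replicate 5, to 0.07.

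Several members have tasks beyond the ribosome's core, and the groups overlapped for each of them. Rps6, the substrate of the S6 kinases, had 254 ± 20.3 CPM in sgNT and 259.5 ± 15.5 among sgCda tumors (SD, n = 5 each). Rpl5 and Rpl11 bind Mdm2 together with 5S ribosomal RNA. Rpl5 ranged from 319 to 391 CPM in sgNT and from 329 to 402 among sgCda tumors, and Rpl11 from 414 to 555 and from 362 to 556. The stalk proteins Rplp0, Rplp1 and Rplp2 recruit translation factors to the large subunit. Rplp0 ranged from 888 to 1102 CPM in sgNT and from 731 to 1099 among sgCda tumors, Rplp1 from 790 to 1018 and from 874 to 1025, and Rplp2 from 434 to 596 and from 461 to 603. Rpsa, also known as a laminin receptor, ranged from 496 to 607 and from 408 to 615 CPM. Rps27a, which is made as a fusion with ubiquitin, ranged from 422 to 527 and from 395 to 533 CPM. Rpl13a, a frequent reference gene in quantitative PCR, ranged from 1593 to 2174 and from 1275 to 2180 CPM, and Rpl22, needed for the development of αβ T cells, from 456 to 528 and from 391 to 561.

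The members varied together from tumor to tumor. For the 74 members with ample counts, each gene's log2 CPM was set against its own mean over the 10 tumors. In sgNT replicate 2 the median deviation was -0.24 and 74 of 74 members lay below their mean. In sgCda replicate 4 it was -0.24 and 65 of 74 lay below. These tumors held the lowest value of 32 and 39 members, so 71 of 74 members were lowest in one of them. At the other end, sgCda replicate 5 had a median deviation of 0.16, with 72 of 74 members above their mean, and it held the highest value of 40 members. The other 7 tumors had medians between -0.07 and 0.11. Over all genes tested, the median deviation of a tumor stayed between -0.01 and 0.01. The scaling of the libraries sets most genes near 0 in each tumor, so this range was largely fixed in advance.

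**Figure D3:**
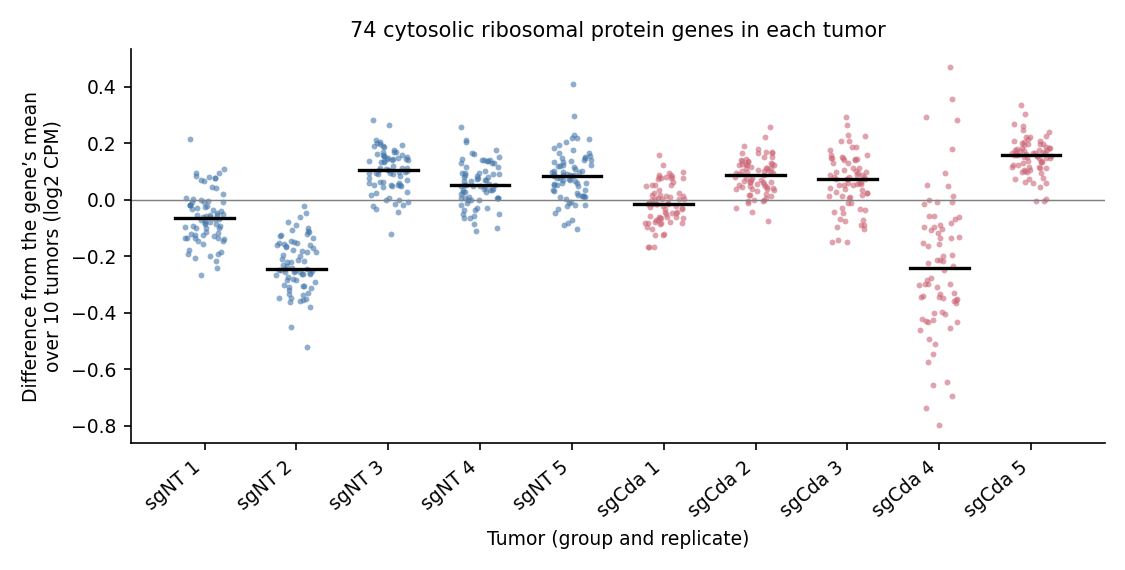
Deviation of 74 cytosolic ribosomal protein genes from their own mean over the 10 tumors (log2 CPM), 1 point per gene, with the median as a black line. The medians of sgNT replicate 2 and sgCda replicate 4 lie at -0.24, and the points of sgCda replicate 4 are the most widely spread.

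The tumors with low values differed in how uniform the drop was, as shown by members picked here after their values were seen. In sgNT replicate 2 the middle 50% of the 74 deviations lay between -0.29 and -0.16, and the drop reached from -0.02 for Rpl30 to -0.52 for Rps28. In sgCda replicate 4 the middle 50% lay between -0.39 and -0.09. There Rps10 had a deviation of -0.80, Rps3 of -0.74, Rps27l of -0.69, Rpl15 of -0.66 and Rps14 of -0.64. In the same tumor Rps28 had a deviation of 0.47, Rps26 of 0.36, Rpl21 of 0.29, Rpl23 of 0.28 and Rpl35 of 0.18. Rps10, whose start carries the tract shown above, and Rps26, whose tract begins a few bases after the annotated start, lay on opposite sides. So did Rps3 and Rps28, which have no tract starting within 5 bases of the annotated start. Members with and without a tract were not compared, so a part of the tract in these deviations was not tested.

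Several measures of the libraries, and the summed macrophage markers, were also at or near an extreme in these tumors, though not always at the same end. Of the uniquely aligned reads, 18.4% fell outside annotated genes in sgCda replicate 4 and 14.9% in sgNT replicate 2, against 10.3% to 13.8% in the other 8. Alignments to more than 1 place numbered 78.9 and 75.4 per 100 assigned counts, against 68.4 to 74.6 in the others. Mitochondrially encoded genes took 5.82% of the counts in sgCda replicate 4, whereas in sgNT replicate 2 they took 3.47%, the lowest value of the 10. The summed T cell markers stood at 161 CPM in sgCda replicate 4 and 219 in sgNT replicate 2 (lowest of all, 149 in sgCda replicate 5). The summed macrophage markers stood at 1618 and 1633 CPM, the lowest values of the 10 tumors, but sgCda replicate 5, where the members were highest, was close at 1636 CPM. The part of these measures in the low ribosomal protein levels was not tested. With both tumors left out, 0 of 77 members had an unadjusted p under 0.05 by edgeR, the median log2 fold change was 0.03, 60 members were above 0, and the difference in share was 0.124 percentage points.

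Over pairs of the 74 members, the median correlation of log2 CPM across the 10 tumors was 0.73, and 92.1% of the 2701 pairs were positively correlated. Without sgNT replicate 2 and sgCda replicate 4 the median was 0.58 over 8 tumors. The same measure was 0.59 for 77 mitochondrial ribosomal protein genes over the 10 tumors and 0.54 over the 8. For 30 ribosome biogenesis factors it was 0.58 over the 10 and 0.78 over the 8, so the members were above this list with all tumors and below it without those 2. All pairs share libraries and scaling, and the values are a description.

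Rpl37 varied least among the members, with an SD of 0.06 in log2 CPM over the 10 tumors, and Rps10 varied most among the 74, with 0.33. The median SD of the 77 members was 0.16, beside 0.20 over all genes tested. The 3 members with the largest SD were Rpl3l (2.04), Rpl39l (1.12) and Rpl23a (0.58).

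Rpl3l, the paralog of Rpl3 that heart and skeletal muscle express, had 0.135, 0.126, 1.15, 2.42 and 0.126 CPM in sgNT and 2.66, 0.789, 7.64, 0.319 and 0.0633 CPM among sgCda tumors, from 2 to 273 counts. The groups overlapped below 2.42 CPM, and sgCda replicates 1 and 3 lay above every sgNT tumor, replicate 3 highest by far. The log2 fold change was 1.54 (SE 1.13, unadjusted p = 0.198 by edgeR), and it was 0.29 without sgCda replicate 3. The 8 skeletal muscle markers summed to 164, 156, 542, 763 and 193 CPM in sgNT and to 703, 503, 2560, 162 and 207 CPM among sgCda tumors. The 5 tumors with the most Rpl3l were the 5 with the most muscle marker RNA. Acta1, the actin of skeletal muscle, stood at 2.60, 0.348, 107, 149 and 4.55 CPM in sgNT and at 152, 80.9, 584, 4.00 and 0.158 CPM among sgCda tumors. Eno3 made up most of the muscle sum where Acta1 was low, at 126 to 272 CPM over all tumors. Rpl3 itself, the protein next to the ribosome's catalytic center, did not follow that order, with 572, 560, 654, 637 and 613 CPM in sgNT and 593, 647, 617, 490 and 693 CPM among sgCda tumors.

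**Figure D4:**
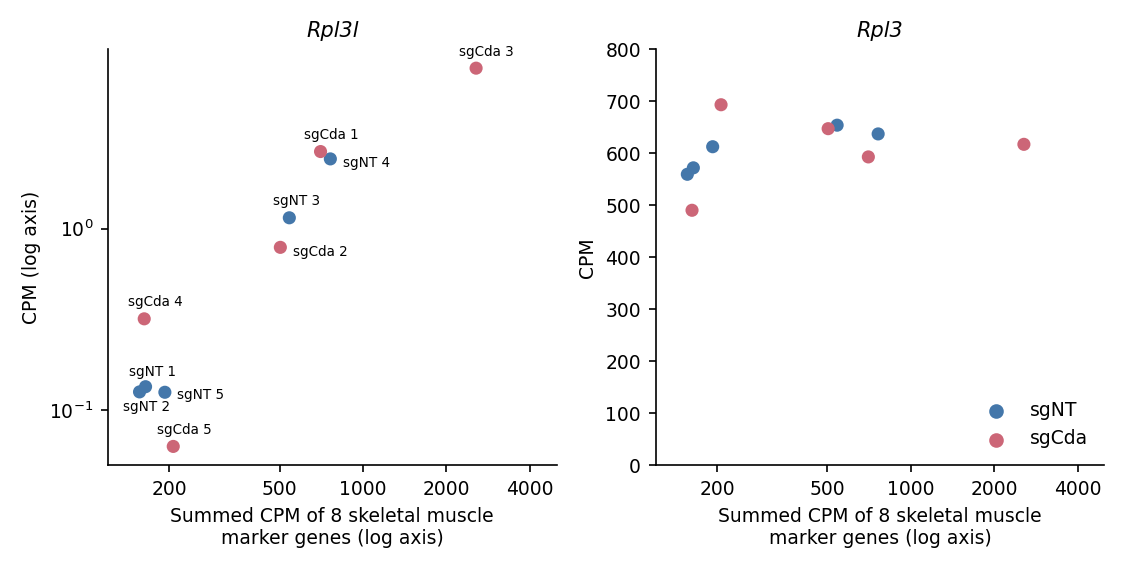
Level of Rpl3l (left, CPM on a log axis) and of Rpl3 (right, CPM) against the summed CPM of 8 skeletal muscle marker genes (log axis), 1 point per tumor. The 5 tumors with more than 500 CPM of muscle markers hold the 5 highest Rpl3l values (0.789 to 7.64 CPM), whereas Rpl3 stays between 490 and 693 CPM.

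The other paralogs named with l or x were measured beside the genes they resemble. Rpl39l, the paralog of Rpl39 that is abundant in testis, had 0.944, 0.316, 0.558, 2.39 and 2.56 CPM in sgNT and 1.17, 0.897, 3.02, 0.283 and 1.46 CPM among sgCda tumors (log2 fold change 0.01, SE 0.64, unadjusted p = 0.987 by edgeR). Its lowest values were those of sgCda replicate 4 and sgNT replicate 2. Rpl39 had 305 to 419 CPM in sgNT and 257 to 446 CPM among sgCda tumors. Rps27l, a paralog of Rps27 whose gene p53 can induce, had 165, 139, 180, 194 and 180 CPM in sgNT and 174, 172, 205, 103 and 190 CPM among sgCda tumors (log2 fold change -0.02, SE 0.16, unadjusted p = 0.889 by edgeR). Its lowest values were again those of sgCda replicate 4 and sgNT replicate 2. Rps27 had 272 to 392 CPM in sgNT and 317 to 389 CPM among sgCda tumors. Rps4x, the X-linked gene for the small subunit protein Rps4, was among the steadiest members, with 776 to 852 CPM in sgNT and 744 to 892 CPM among sgCda tumors. Rpl10l, the testis paralog of the X-linked gene Rpl10, is the member with 0 counts.

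Sequence shared with other genes was the rule among the members. The coding sequence of each member was divided into all overlapping windows of 50 bases, the length of the reads. A median of 90.2% of these windows per member also occurred in an annotated transcript of a gene elsewhere in the genome. The share was at least 50% for 63 of the 78 members and under 10% for 5, among them Rpl3l and Rpl39l at 0%, Rps3 at 8.09% and Rpl8 at 8.73%. For 13717 protein-coding genes with at least 100 counts the median was 0%, and 574 of them reached 50%. A read from a shared window can align to more than 1 place, and such reads were not counted. The 193 pseudogene rows of these families together held 0.110 counts per 100 member counts.

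Rpl23a, a core protein beside the exit of the peptide tunnel, had all of its coding windows (100%) elsewhere too, and its name is carried by 14 annotated pseudogenes. The 27 members at 100%, Rpl23a included, had a median of 368 CPM. Tlcd1, on the opposite strand, overlaps 506 of the 847 merged exon bases of Rpl23a. The part of these traits in its low counts was not tested. Rpl23a had 3.68, 2.94, 3.53, 5.15 and 7.21 CPM in sgNT and 3.44, 5.00, 3.92, 11.6 and 4.68 CPM among sgCda tumors. The other large and small subunit genes outside the paralogs stood at 86.4 to 1922 CPM. The highest value of Rpl23a was that of sgCda replicate 4, the tumor in which most members were lowest. The log2 fold change was 0.34 (SE 0.36, unadjusted p = 0.359 by edgeR), and -0.08 without sgCda replicate 4.

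Levels per length were compared as CPM per kilobase (kb) of merged exons. Rplp1 was highest at 1885 ± 140 CPM per kb (SD over 10 tumors), with 60.4% of its coding windows shared. It was followed by Rpl8 (946 ± 88.4, 8.73% shared), which lies at the peptidyl transferase center, then by Rpl13a (909 ± 136, 38.8% shared), Rpl32 (909 ± 122, 37.6% shared) and Rps15 (851 ± 119, 43.3% shared). The lowest after Rpl3l (0.938 ± 1.43), Rpl39l (1.64 ± 1.18) and Rpl23a (6.04 ± 3.06) were Rpl29 (76.7 ± 11.3, 90.3% shared) and Rps15a (76.9 ± 7.08, 84.2% shared). Along the order of all 77 members, the ranges over the 10 tumors were separate for only 2 of the 76 neighboring pairs, Rplp1 above Rpl8 and Rpl29 above Rpl23a. The order also depends on which length is used. With the length of 1 representative transcript in place of merged exons, 6 of the 10 highest members stayed among the 10 highest, Rplp1, Rpl8, Rpl13a and Rpl32 among them.

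Among the 74 members with ample counts, the level per kb covered a 24.6-fold range, although most of their proteins are used in equal numbers. The 9 members with 10% to under 50% of windows shared had a median of 674 CPM per kb. The 36 with 50% to under 100% shared had a median of 220, and the 27 with all windows shared, Rpl23a with its few counts included, had a median of 162. Over the 74 genes, Spearman's rho of the level per kb with the share of shared coding windows was -0.39, and that of CPM was -0.51. The sign turned, with a rho of 0.19, when CPM were divided by only the part of the transcript that was neither shared nor overlapped by another gene, a quantity that itself contains the share. These values are a description across genes that share libraries and counting. An annotated gene overlaps 26 of the 78 members on the same strand, Rpl13a and Rps10 among them, and reads in the overlap are counted for neither gene. A gene on the opposite strand overlaps 18 members, and whether strand was used in counting is not given in the sources used here.

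**Figure D5:**
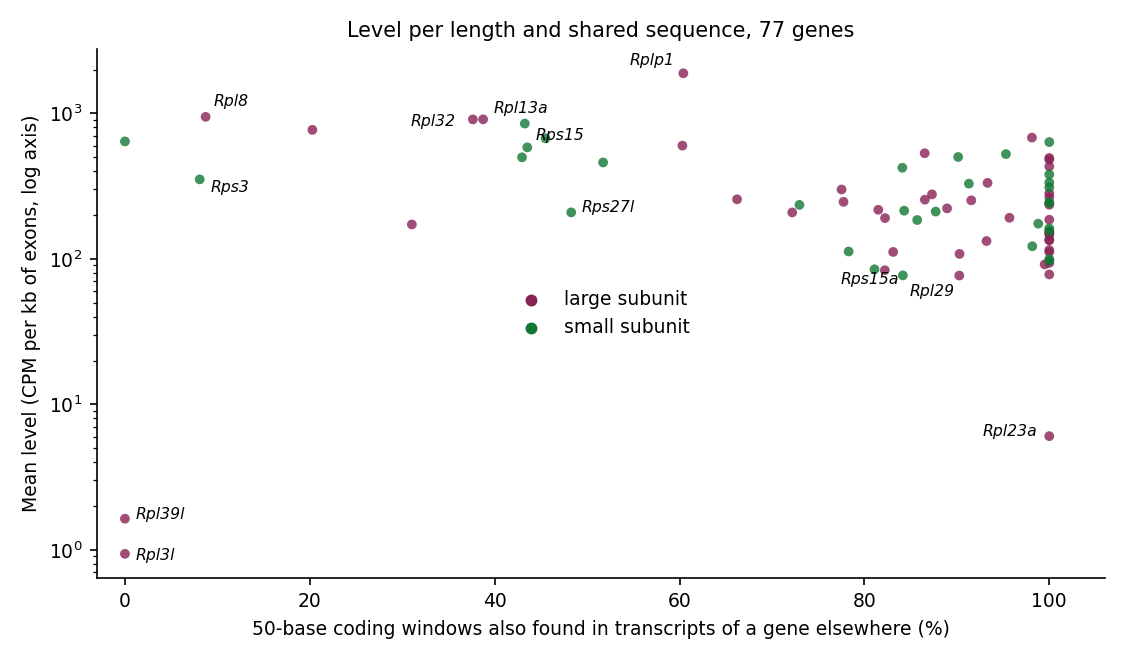
Mean level of 77 members over the 10 tumors (CPM per kb of merged exons, log axis) against the percentage of their 50-base coding windows found in a transcript of a gene elsewhere. Purple points are large subunit genes and green points small subunit genes. Members with all windows shared lie between 6.04 (Rpl23a) and 634 CPM per kb, and Rpl3l and Rpl39l are low without shared windows.

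Other genes of the translation machinery were measured as lists. Ribosomal protein genes outside the naming pattern included Fau and Rack1, and of the 8 listed, 7 passed the filter. In this list 3 log2 fold changes were above 0, 0 genes had an adjusted or an unadjusted p under 0.05, and the median was 0.00. The smallest p-value was that of Rpl36al, with 57.5 ± 6.55 CPM in sgNT and 64.1 ± 5.53 CPM among sgCda tumors (SD, n = 5 each, log2 fold change 0.16, unadjusted p = 0.113 by edgeR).

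The 19 translation factors and other TOP transcripts gave 8 values above 0, a median of -0.01 and 0 unadjusted p under 0.05. Eef2, the factor that moves the ribosome along the messenger RNA, had 2438 ± 89.2 CPM in sgNT and 2333 ± 310 among sgCda tumors. Npm1, a nucleolar chaperone, had 666 ± 43.1 and 738 ± 84.9 CPM. In sgNT replicate 2 and sgCda replicate 4 this list had median deviations of -0.09 and -0.22, and the ribosomal protein genes outside the naming pattern had -0.16 and -0.22.

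The 30 ribosome biogenesis factors gave 17 values above 0, a median of 0.02 and 0 unadjusted p under 0.05. Polr1a, the largest subunit of RNA polymerase I, had 69.9 ± 6.58 CPM in sgNT and 64.8 ± 4.03 among sgCda tumors, and Gnl3, a nucleolar GTP-binding protein, had 46.0 ± 8.13 and 52.9 ± 8.76 CPM. Their median deviations were -0.14 in sgNT replicate 2 and -0.13 in sgCda replicate 4, and the highest was 0.32 in sgCda replicate 3, where the cytosolic ribosomal protein genes had 0.07.

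Of 78 mitochondrial ribosomal protein genes, 77 were tested, 44 were above 0, the median log2 fold change was 0.01 and 0 had an unadjusted p under 0.05. Mrpl32, with the smallest p-value, had 33.2 ± 0.976 CPM in sgNT and 35.5 ± 1.42 among sgCda tumors (unadjusted p = 0.101 by edgeR). This list also stood low in sgNT replicate 2 (-0.16) and sgCda replicate 4 (-0.15).

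Of the 19 regulators of ribosomal protein translation and ribosome sensing, 18 were tested, with 8 above 0, a median of -0.01 and 0 unadjusted p under 0.05. Rps6kb1, a kinase that phosphorylates Rps6, had 70.7 ± 2.64 CPM in sgNT and 77.6 ± 6.59 among sgCda tumors (log2 fold change 0.14, SE 0.07, unadjusted p = 0.0662, adjusted p = 0.9996 by edgeR). Eif4ebp2, an inhibitor of cap-dependent translation, had 49.1 ± 1.54 and 44.3 ± 6.79 CPM (log2 fold change -0.15, unadjusted p = 0.161 by edgeR). The median deviation of this list was 0.03 in sgNT replicate 2 and -0.03 in sgCda replicate 4.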

How the data were processed

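RNA-seq was done by the authors on TRIzol extracts of 10 tumors. Polyadenylated RNA was made into stranded libraries (KAPA kit), single 50-base reads were aligned to GRCm38/mm10 with TopHat and Bowtie, and HTSeq counted reads per Ensembl gene (the labels name FastQC 0.11.5, Bowtie2 and HTSeq 07.2; the HTSeq strand setting and the annotation release are not given in the sources used here). The analysis started from the deposited counts per gene, which are whole and not normalized, and 5 HTSeq summary lines were dropped from tests. Reads aligning to more than 1 place or overlapping more than 1 gene were not counted by HTSeq, which lowers the counts of genes with near-identical copies.

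Symbols were matched to 32608 of 37417 identifiers. Groups came from the sample titles, and nothing in the labels ties tumors to separate cultures, so p-values measure the spread between these tumors. Genes were filtered with filterByExpr (minimum count 10, minimum total 15), scaled by TMM and tested with edgeR 4.0.16 (R 4.3.3, quasi-likelihood, no covariate). CPM are TMM-scaled, log2 CPM use a prior count of 2, and DESeq2 1.42.0, limma-voom 3.58.1, other scalings, filters and left-out tumors were alternatives. The test was checked on simulated counts. Exons, lengths and 50-base windows came from GENCODE vM21 (GRCm38).

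The members and the lists of genes were chosen with earlier results of these data known. Members named by rule were the 5 highest and 5 lowest per kb, those under the filter, the 3 smallest p-values in each direction, the 3 largest SDs, names ending in l or x with the genes they are named after, and 10 with known separate roles. Others are named as chosen after seeing values. From each other list, up to 2 genes with the smallest p-values in each direction could be named. Single values of some members are not reported here.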

Additional observations from a re-analysis of the deposited data

Results flagged for a closer look

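In 7 of 58 groups of 5 tumors (the share of the members and the log2 CPM of each named member, per group), 1 tumor lay apart from the other 4, with a gap above 0.71 of the group's range. Chance flags about 1 in 20 independent groups, but these groups share tumors, the members vary together and some were named for a large SD or a small p-value, so 7 cannot be read against that share. Of the 7 values, 5 belonged to sgCda replicate 4. In that tumor Rpl13a stood at a log2 CPM of 10.32 (the others at 10.94 to 11.09), Rps15a at 8.61 (8.96 to 9.06), Rps27l at 6.69 (7.43 to 7.68) and Rpl11 at 8.50 (8.96 to 9.12), all lower than the other sgCda tumors. Rps26 stood at 8.85 there (8.43 to 8.55), higher than the others. In sgCda replicate 5 Rps24 stood at 9.65 (9.47 to 9.51), and in sgNT replicate 2 Rpl23 stood at 9.72 (9.82 to 9.86).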

How the results depend on the processing

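No gene, member or not, reached an adjusted p under 0.05 in 19 alternatives, including DESeq2, limma-voom, other scalings, other filters and each tumor left out, so the count of members stayed at 0. The median log2 fold change of the members ranged from -0.03 to 0.08 and the difference in share from -0.0506 to 0.258 percentage points, both set by leaving out sgNT replicate 2 or sgCda replicate 4. Removing mitochondrially encoded genes gave 0.107 points, and adding pseudogene rows 0.0841. With the replicate number as a block (replicate block), the median was 0.02 and 0 of 77 members had an unadjusted p under 0.05. The correlations of same-numbered tumors' deviations were -0.03, -0.02, 0.33, -0.43 and 0.34. No differently numbered tumors were set beside them, so they cannot decide whether the numbers pair the tumors. A set of alternatives was chosen after seeing the data. Leaving out sgNT replicate 2 and sgCda replicate 4 together turned Rps7 to 0.0059, Rpl23a to -0.20 and Rps27l to 0.044, and keeping the 14 members with under 50% shared coding windows gave a median of 0.00. Rpl39l turned to -0.0034 when all genes with at least 1 count were kept. With single tumors left out, Rps7 ranged from -0.11 to 0.054, Rpl29 from -0.12 to 0.071, Rps27l from -0.10 to 0.11, Rpl23a from -0.080 to 0.58 and Rpl39l from -0.51 to 0.38. The cause of these turns was not tested. The restriction to windows unique in the genome was not run, as no genome sequence was used. Few counts (2 to 273 per tumor for Rpl3l, 8 to 108 for Rpl39l) limit these genes, and lost reads limit levels of members with shared sequence.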
